A study of Homo sapiens with 9 samples.

Results

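The 10 genes described here encode enzymes that build nucleotides from small precursors: PPAT, GART, PFAS, PAICS and ATIC of de novo purine synthesis, and CAD, DHODH, UMPS, CTPS1 and CTPS2 of de novo pyrimidine synthesis. They were taken by gene symbol from the 59050 symbols of the count table, and all 10 were found. Each of them also passed the filter on low values, a CPM (counts per 1000000 counts of the library) above 1 in at least 3 samples, which left 13463 genes for testing. The CPM values given below use library sizes scaled by TMM, edgeR's correction for differences in RNA composition. RNA was sequenced from MEC1, an established B-cell line of chronic lymphocytic leukemia (CLL), under 3 culture conditions with 3 samples each. The sample titles carry the tag MECPGK, whose meaning is not given in the sources used here. The 2D cells were cultured conventionally, and the other cells were bioprinted in 3D within a hydrogel scaffold crosslinked with calcium chloride and harvested at day 7 (3D_7d) or at day 14 (3D_14d). No drug or other treatment distinguished the groups, and all samples come from a single line, so the values describe MEC1 only. RNA of the scaffolds was extracted with TRIzol, treated with DNase I and extracted again on a column, while RNA of the 2D cells was extracted on the column alone. This difference in extraction and the difference in culture cannot be told apart in either 3D condition against 2D, whereas both time points were extracted alike. The labels give no harvest day for the 2D cells, so time in culture and the scaffold cannot be told apart in these comparisons either.

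The counts of a sample summed to 54662799 at the lowest and 85968686 at the highest. A chi-square test of the counts of replicate pairs gave 22.5 to 81.9 per gene within 2D or 3D_7d and 155 to 305 within 3D_14d, so replicates were spread beyond counting error, and within 3D_14d replicate 1 stood farthest from the others. Nothing in the labels says that replicates came from separate cultures, so p-values measure the spread between these samples, which may be technical. The summed CPM of 8 B-cell markers was 2530 to 2550 in 2D, 2780 to 3500 in 3D_7d and 3450 to 3790 in 3D_14d. MS4A1 contributed most in 2D and 3D_7d and CD79A in 3D_14d, while CD5 averaged under 1 CPM in every group. Of the 7 markers tested, 1 rose (MS4A1) and 1 fell (CD22) at day 7. At day 14, 2 were higher than in 2D (CD79A and CD79B) and 1 lower (CD22). Over all genes tested, 22.2% rose and 21.2% fell at day 7, and 19.0% were higher and 17.2% lower at day 14. Of other cells, the summed CPM of 8 T and NK cell markers was 1.40 to 2.66 in 2D, 2.92 to 3.33 in 3D_7d and 4.97 to 7.24 in 3D_14d, with CD3D at 0 in 2D and 3D_14d. Most of this sum in 3D_7d and 3D_14d came from 1 gene, KLRD1, at a mean of 2.3 and 4.69 CPM. The other 7 markers averaged under 1 CPM there, as did all 8 in 2D. The sums of 7 myeloid markers stayed between 0.304 and 1.18, with LYZ and S100A8 at 0 in 2D and 3D_14d, and those of 6 stromal markers were 10.3 to 11.4, 2.35 to 5.32 and 2.67 to 8.89. Since the RNA of many cells was measured together, a smaller share of cells that express a gene and less of its RNA per cell cannot be told apart. RNA of the 3D samples came from the printed scaffolds. In the study, viable GFP-labelled MEC1 cells were also found in the medium outside scaffolds at day 7, and more of them at day 14. Cells that had left the scaffold may thus be missing from the 3D samples, which was not tested.

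Purine nucleotides are assembled step by step on a ribose phosphate, using glutamine, glycine, aspartate, carbon dioxide and formyl groups carried by folate, until inosine monophosphate is formed. Pyrimidine nucleotides are made in another order: the ring is built first from glutamine, bicarbonate and aspartate, then joined to the ribose phosphate to give UMP, and UTP is finally aminated to CTP. Resting lymphocytes rely largely on salvage of preformed bases and nucleosides, and lymphocytes that divide draw on de novo synthesis, which drugs such as methotrexate, leflunomide and mycophenolate exploit.

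Sequences before the gene starts are given for the 3 enzymes with the largest rises at day 7 (CTPS1, CAD and GART), for ATIC, the most abundant enzyme, and for the bases between PPAT and PAICS, which lie head to head on chromosome 4. They come from the RefSeq promoter table on GRCh38.p14, are written 5′ to 3′ and end at the base before the transcription start, except the last, which is on the plus strand and fills the space between both starts as the count file gives them; the RefSeq start of PAICS lies 11 bases farther on. Capitals mark matches on either strand to a CCAAT box (CCAAT), a GC box (GGGCGG), or an E-box (CACGTG), the sequence known to be bound by MYC and related factors. Positions are chr1:40979546-40979695, plus strand, for CTPS1; chr2:27217219-27217368, plus strand, for CAD; chr21:33542890-33543037, minus strand, for GART; chr2:215311909-215312058, plus strand, for ATIC; and chr4:56435616-56435740 for the shared stretch.
CTPS1: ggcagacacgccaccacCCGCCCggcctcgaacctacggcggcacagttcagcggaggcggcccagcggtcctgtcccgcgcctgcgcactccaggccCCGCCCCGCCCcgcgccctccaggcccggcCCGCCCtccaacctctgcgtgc
CAD: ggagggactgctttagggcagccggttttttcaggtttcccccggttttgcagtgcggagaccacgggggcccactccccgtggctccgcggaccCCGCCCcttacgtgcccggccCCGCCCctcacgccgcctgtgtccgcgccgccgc
GART: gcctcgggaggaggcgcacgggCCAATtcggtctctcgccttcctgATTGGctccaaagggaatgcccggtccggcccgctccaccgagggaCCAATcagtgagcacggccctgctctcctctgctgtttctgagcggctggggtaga
ATIC: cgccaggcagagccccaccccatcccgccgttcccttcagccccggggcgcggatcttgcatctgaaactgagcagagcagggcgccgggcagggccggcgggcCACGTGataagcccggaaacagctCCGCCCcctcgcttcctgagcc
PPAT-PAICS: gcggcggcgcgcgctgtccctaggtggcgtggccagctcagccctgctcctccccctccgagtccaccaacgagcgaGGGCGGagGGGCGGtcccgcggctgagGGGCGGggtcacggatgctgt

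In GRCh38, the genes themselves lie at chr21:33503931-33542861 (GART, minus strand), chr17:8249289-8270486 (PFAS, plus strand), chr2:215312059-215349764 (ATIC, plus strand), chr2:27217369-27243943 (CAD, plus strand), chr16:72008588-72027664 (DHODH, plus strand), chr3:124730445-124749273 (UMPS, plus strand), chr1:40979696-41012565 (CTPS1, plus strand) and chrX:16587999-16712936 (CTPS2, minus strand). These 8 share no exonic bases with another gene.

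The stretch before CTPS1 held 4 GC boxes, of which 2 overlap by 1 base, and the stretch before GART held 3 CCAAT boxes and no GC box. Over the full window of 300 bases (250 before and 50 after the start), the GC box was found in 7 of the 10 enzymes, against 44.9% of all 34943 windows of the table, but PPAT and PAICS count the same 3 boxes of their shared stretch. The CCAAT box was found in 3 enzymes (GART, CAD and DHODH) against 34.6% of all windows. An E-box was found in 4 windows (PPAT, PAICS, ATIC and DHODH) against 7.23% of all windows, where PPAT and PAICS likewise hold the same E-box. A cyclic AMP response element (TGACGTCA) was found in UMPS alone, against 1.84% of all windows, and CTPS2 held none of the 4 motifs. CTPS1 and CAD, with GC boxes, and GART, with none, all rose at day 7, and the windows with an E-box belonged to 1 enzyme that rose at day 7 (ATIC) and 3 that did not pass the test then. A match is a description of the letters only.

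Levels were compared between genes per length, as RPKM (CPM divided by the exon length in kilobases, with library sizes scaled by TMM, edgeR's correction for differences in RNA composition). ATIC, the enzyme of the last steps to inosine monophosphate, was the most abundant in each condition, and CTPS2 was the least abundant in 2D and 3D_7d. In 2D, ATIC stood at 87.5 ± 1.61 RPKM (SD, n = 3), followed by PAICS with 36.8 ± 2.05 and GART with 32.5 ± 2.09. PPAT reached 13.3 ± 0.887 RPKM, and the other 6 enzymes lay between 4.09 ± 0.206 (CTPS2) and 9.83 ± 0.228 (DHODH). The highest mean was 21.4 times the lowest. DHODH and UMPS, and PFAS and CAD, were neighbours in this order whose samples overlapped, and the samples of all other neighbours were apart.

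At day 7 the order changed. GART (68.8 ± 9.10 RPKM) stood above PAICS (39.5 ± 4.78), and CTPS1 moved from the seventh place to the fourth with 27.4 ± 0.927, ahead of CAD with 17.95 ± 0.578. No neighbours overlapped, and ATIC, at 152 ± 23.6 RPKM, was 30.9 times CTPS2, at 4.93 ± 1.09. At day 14, ATIC (87.0 ± 13.1), GART (32.3 ± 7.36) and PAICS (15.5 ± 3.34) were apart from each other and from the rest. The remaining 7 enzymes lay between 4.604 ± 2.02 (PFAS) and 7.37 ± 1.06 RPKM (UMPS), and each overlapped its neighbour in the order. Summed over the 10 enzymes, CPM was 870.4, 915.2 and 889.7 in the 2D samples, 1321, 1495 and 1577 at day 7 and 585.7, 803.1 and 635.7 at day 14. Every day 7 sample thus lay above every 2D sample, and every day 14 sample below.

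**Figure D1:**
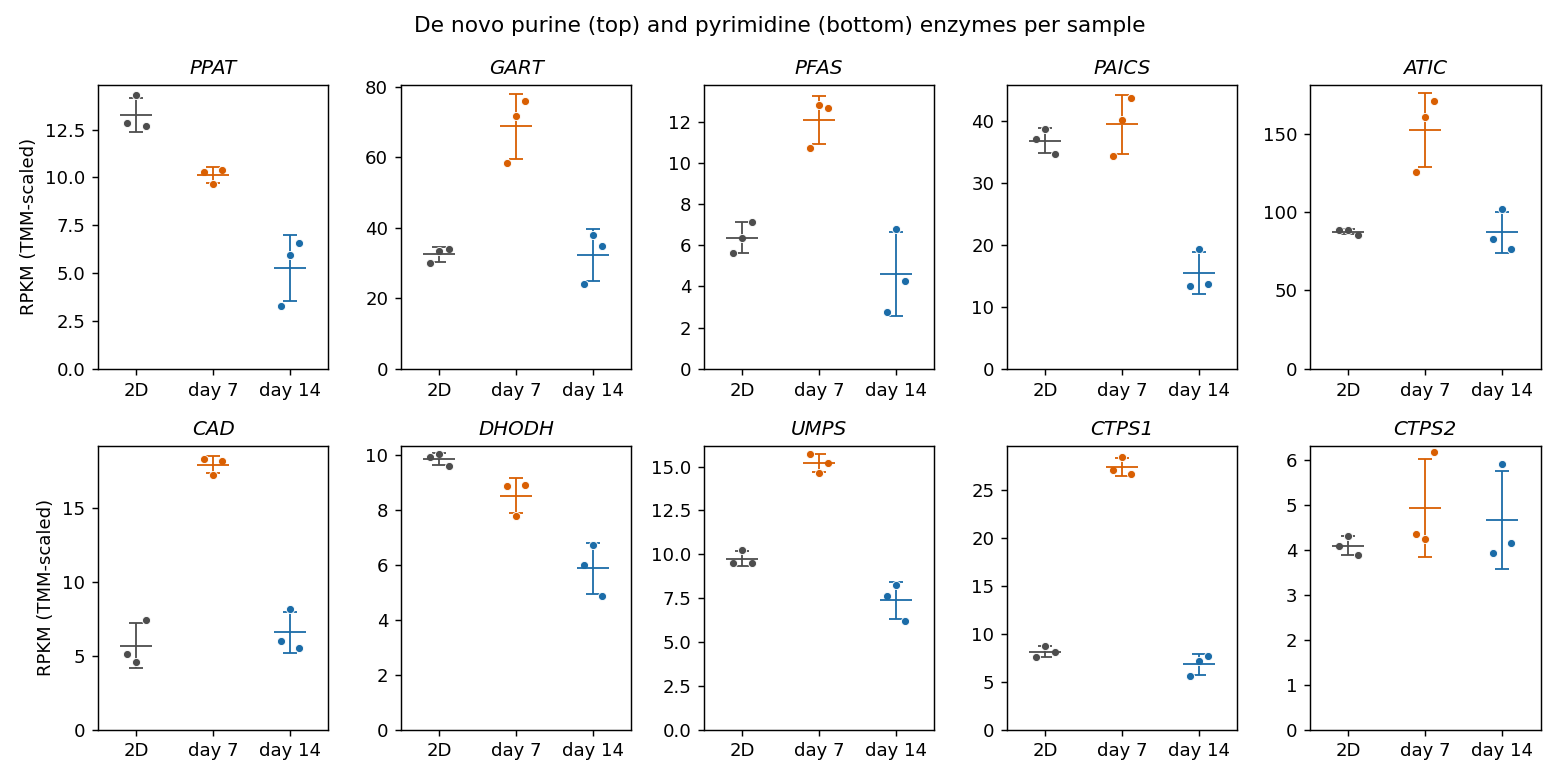
Level of each enzyme in every sample as RPKM with TMM-scaled library sizes, on a linear axis from 0 for each gene; purine enzymes are in the upper row and pyrimidine enzymes in the lower, points are samples, and bars show the mean with SD (n = 3 per condition). CTPS1 and CAD peak at day 7 with samples far above the other conditions, PPAT and DHODH are lower at day 14 than in 2D, and the CTPS2 samples overlap throughout.

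The comparison of 3D_7d with 2D asked how expression after 7 days in the printed scaffold differed from that in 2D culture. After 7 days, 6 of the 10 enzymes rose and none fell. CTPS1, which makes CTP from UTP and glutamine, rose 3.37-fold, and CAD, the protein that carries out the opening reactions of pyrimidine synthesis, rose 3.15-fold. GART, PFAS and ATIC of the purine route rose 2.12-fold, 1.90-fold and 1.74-fold, and UMPS, which forms UMP, rose 1.56-fold. The first purine enzyme PPAT, its neighbour PAICS, the mitochondrial enzyme DHODH and the paralog CTPS2 did not pass the test. Over all genes tested, 22.2% rose and 21.2% fell, and the median log2 fold change of the 10 enzymes was 0.72 beside -0.00395 for all genes. The samples of 2D and 3D_7d did not overlap for 8 of the 10 enzymes, against 64.6% of all genes. edgeR called 0 of the 10 lower, DESeq2 also 0, and 0 had an unadjusted p under 0.05 in that direction.

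Among the purine enzymes, PPAT, which commits ribose phosphate to the route by adding the amide nitrogen of glutamine, was at 12.9, 14.3 and 12.7 RPKM in 2D and at 10.3, 9.66 and 10.4 at day 7. All day 7 samples lay below all 2D samples, with a log2 fold change of -0.39 (SE 0.214, adjusted p = 0.159). This call depended on the samples in the fit: with the 6 samples of the comparison alone the log2 fold change was -0.41 with an adjusted p of 0.00564, and without 3D_14d replicate 1 it was -0.40 with an adjusted p of 0.0111. GART, which joins 3 reactions of the route in 1 protein, was at 30.1, 33.4 and 33.9 RPKM in 2D and at 58.6, 71.8 and 76.0 at day 7. Its groups were far apart, with a log2 fold change of 1.08 (SE 0.178, adjusted p = 0.000465). PFAS, which uses glutamine to introduce a further nitrogen, rose from 5.61, 6.38 and 7.11 to 10.7, 12.8 and 12.7 RPKM. Its log2 fold change was 0.92 (SE 0.255, adjusted p = 0.0112), and without 2D replicate 1 it was 0.80 with an adjusted p of 0.0535.

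PAICS, which carries out a carboxylation and a ligation of aspartate in the middle of the route, was at 37.0, 38.8 and 34.7 RPKM in 2D and at 34.3, 40.2 and 43.8 at day 7. These samples overlapped, and its log2 fold change of 0.10 had a 95% interval of -0.26 to 0.46 (adjusted p = 0.658), which excludes a rise of the size of GART's but not a small change in either direction. ATIC, which adds the last formyl group and closes the ring, rose from 88.4, 88.5 and 85.7 to 125.8, 160.9 and 170.6 RPKM. The 2D samples of ATIC were nearly equal, all day 7 samples were higher, and the log2 fold change was 0.80 (SE 0.156, adjusted p = 0.0014).

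Among the pyrimidine enzymes, CAD was at 5.10, 4.57 and 7.43 RPKM in 2D, with replicate 3 above the others, and at 18.4, 17.3 and 18.2 at day 7. All day 7 samples were more than 2 times every 2D sample, and the log2 fold change was 1.66 (SE 0.202, adjusted p = 6.12e-05). DHODH, the enzyme of the inner mitochondrial membrane that oxidises dihydroorotate and passes electrons to ubiquinone, was at 9.91, 10.01 and 9.58 RPKM in 2D and at 8.85, 7.76 and 8.88 at day 7. All its day 7 samples were below all 2D samples, yet the log2 fold change of -0.21 did not pass the test (95% interval -0.54 to 0.12, adjusted p = 0.287). UMPS, which attaches the ring to ribose phosphate and decarboxylates it, rose from 9.50, 10.3 and 9.49 to 15.7, 14.7 and 15.2 RPKM, a log2 fold change of 0.64 (SE 0.141, adjusted p = 0.00297). The enzymes directly before and after DHODH in the route thus rose while DHODH did not pass the test.

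CTPS1 and CTPS2 catalyse the same reaction, and CTPS1 is the form known to be needed for the expansion of activated lymphocytes. CTPS1 was at 7.59, 8.68 and 8.09 RPKM in 2D and at 27.1, 28.4 and 26.7 at day 7, with little spread in either group. Its log2 fold change of 1.75 (SE 0.15, adjusted p = 6.99e-06) placed it at rank 68 by p among all genes tested. CTPS2 was at 4.08, 4.30 and 3.89 RPKM in 2D and at 4.36, 4.25 and 6.18 at day 7. Replicate 3 of day 7 stood highest, replicate 2 lay within the range of 2D, so the groups overlapped, and the log2 fold change of 0.27 had a 95% interval of -0.17 to 0.71 (adjusted p = 0.305).

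The comparison of 3D_14d with 2D asked what remained different after 14 days. By then no enzyme was higher than in 2D, and 4 were lower: PPAT and PAICS, the head-to-head pair, DHODH and UMPS. Of the 6 enzymes that had risen at day 7, UMPS was now below 2D and the other 5 no longer passed the test. Over all genes tested, 19.0% were higher and 17.2% lower, and the median log2 fold change of the 10 enzymes was -0.329 beside 0.0228 for all genes. The groups did not overlap for 4 of the 10 enzymes, the same 4, against 49.7% of all genes. edgeR called 0 of the 10 higher, DESeq2 also 0, and 0 had an unadjusted p under 0.05 in that direction.

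PPAT stood at 3.29, 5.93 and 6.56 RPKM at day 14, 2.52-fold lower than in 2D (log2 fold change -1.33, SE 0.218, adjusted p = 0.000612), and replicate 1 was the lowest sample. Without 3D_14d replicate 1 the log2 fold change was -1.08 with an adjusted p of 8.36e-05. PAICS stood at 13.4, 19.4 and 13.7 RPKM, 2.38-fold lower than in 2D (log2 fold change -1.25, SE 0.167, adjusted p = 0.000171). Both genes of the pair were thus lower in every day 14 sample than in any 2D sample. DHODH stood at 5.99, 6.72 and 4.87 RPKM, 1.68-fold lower (log2 fold change -0.75, SE 0.155, adjusted p = 0.00273). UMPS stood at 7.64, 8.26 and 6.20 RPKM, 1.32-fold lower (log2 fold change -0.40, SE 0.141, adjusted p = 0.0398). The UMPS call was the least secure of the 4, since it was lost under 7 of 17 alternatives, with adjusted p-values from 0.00358 to 0.157.

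The other 6 enzymes overlapped with 2D. GART was at 23.99, 38.0 and 34.9 RPKM and ATIC at 82.7, 101.7 and 76.7, each with a log2 fold change of -0.01, with 95% intervals of -0.39 to 0.38 and -0.34 to 0.33. PFAS was at 2.76, 6.77 and 4.29 RPKM, the widest relative spread of the 10, with a log2 fold change of -0.47 (adjusted p = 0.169). Without 3D_14d replicate 2 the PFAS value was -0.85 with an adjusted p of 0.0093, so 1 sample decides that call. CAD was at 6.002, 8.20 and 5.55 RPKM (log2 fold change 0.21, 95% interval -0.22 to 0.64), CTPS1 at 5.59, 7.10 and 7.72 (-0.26, -0.57 to 0.06) and CTPS2 at 3.93, 5.91 and 4.14 (0.19, -0.25 to 0.63). For CTPS1 and CAD, these intervals lie well below the log2 fold changes of 1.75 and 1.66 seen at day 7.

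The comparison of 3D_14d with 3D_7d asked how expression changed during culture in the scaffold, with RNA extracted in the same way. From day 7 to day 14, 9 of the 10 enzymes fell and none rose. CTPS1 fell most, 4.02-fold, which placed it at rank 7 by p among all genes tested, and CAD fell 2.73-fold. Over all genes tested, 14.5% rose and 13.6% fell, and the median log2 fold change of the 10 enzymes was -1.07 beside -0.00125 for all genes. The samples of the 2 time points did not overlap for 9 of the 10 enzymes, against 39.3% of all genes, with each day 14 sample below each day 7 sample. Of the 10, 0 were called higher by edgeR or by DESeq2, and 0 had an unadjusted p under 0.05 in that direction. Both this comparison and the one of 3D_7d with 2D use the day 7 samples, and their values are given side by side without a test of likeness.

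On the purine route, the log2 fold changes from day 7 to day 14 were -0.94 for PPAT (SE 0.217, adjusted p = 0.00746), -1.09 for GART (SE 0.178, adjusted p = 0.00122) and -1.39 for PFAS (SE 0.258, adjusted p = 0.0025). PAICS fell by 1.35 (SE 0.168, adjusted p = 0.000253) and ATIC by 0.81 (SE 0.156, adjusted p = 0.00306) on the log2 scale. All 5 purine enzymes therefore fell, including PPAT and PAICS, which had not passed the test at day 7. On the pyrimidine route, CTPS1 fell by 2.01 (SE 0.152, adjusted p = 1.52e-05), CAD by 1.45 (SE 0.201, adjusted p = 0.000486) and UMPS by 1.04 (SE 0.142, adjusted p = 0.00044). DHODH fell by 0.54 (SE 0.155, adjusted p = 0.0219), the smallest change that passed the test, and its call was lost without 3D_7d replicate 1 (adjusted p = 0.0506) or 3D_7d replicate 3 (adjusted p = 0.0821) and with the 6 samples of the comparison alone (adjusted p = 0.0804). CTPS2 was the exception, with a log2 fold change of -0.08 (95% interval -0.52 to 0.36, adjusted p = 0.792). Without 3D_14d replicate 1, the sample that stood farthest from its group, 9 of the 10 enzymes were likewise lower at day 14 than at day 7 and 4 were lower than in 2D.

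**Figure D2:**
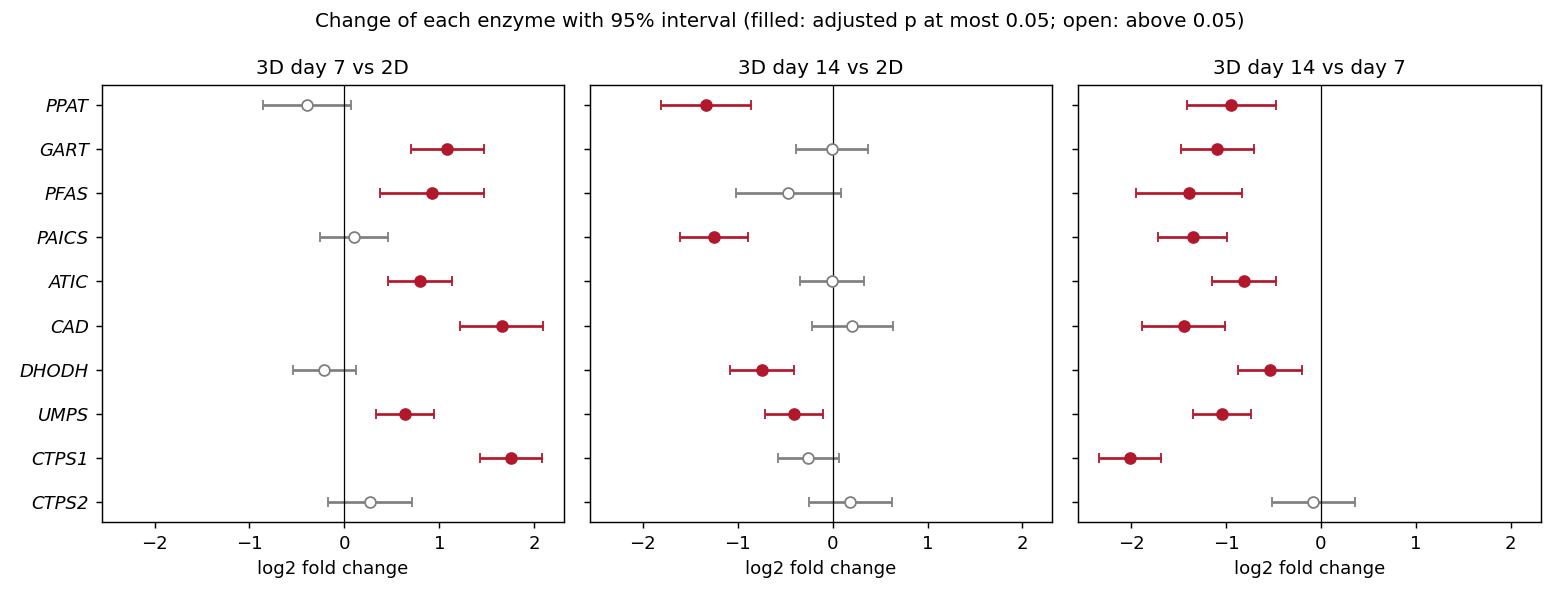
Log2 fold change of each enzyme with its 95% interval in the 3 comparisons; filled points have an adjusted p of at most 0.05 and open points a larger one, and 0 on the horizontal axis means no change. At day 7, 6 filled points lie to the right of 0; from day 7 to day 14, 9 filled points lie to the left, with CTPS1 at -2.01 the farthest and CTPS2 at -0.08 open.

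The ratio of a pair of genes within a sample does not depend on the scaling of the library, and it was examined for the paralogs CTPS1 and CTPS2 and for the head-to-head genes PPAT and PAICS. CTPS1 was 1.86, 2.02 and 2.08 times CTPS2 per length in 2D. At day 7 the ratio was 6.21, 6.69 and 4.31, and at day 14 it was 1.42, 1.20 and 1.86. The 3 day 7 samples stood above all others. On the log2 scale it averaged 0.988 ± 0.0844 for 2D, 2.5 ± 0.34 for day 7 and 0.557 ± 0.32 for day 14 (SD, n = 3 each). The difference of day 7 from 2D was 1.51 (exact two-sided permutation test, p = 0.1, adjusted p = 0.2 over 6 tests) and that of day 14 from day 7 was -1.94 (exact permutation p = 0.1, adjusted p = 0.2). A comparison of 3 samples with 3 cannot give a p under 0.1, so both are at the smallest value the design allows. Day 14 differed from 2D by -0.431 (exact permutation p = 0.2, adjusted p = 0.24).

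PAICS was 2.88, 2.72 and 2.74 times PPAT per length in 2D, 3.33, 4.17 and 4.21 times at day 7, and 4.09, 3.26 and 2.09 times at day 14. The 2D ratios were nearly constant, the day 7 ratios all lay above them, and the day 14 ratios spread over both. The log2 ratio of PPAT to PAICS averaged -1.47 ± 0.046 for 2D, -1.96 ± 0.191 for day 7 and -1.60 ± 0.493 for day 14 (SD, n = 3 each). It differed from 2D by -0.481 at day 7 (exact permutation p = 0.1, adjusted p = 0.2) and by -0.125 at day 14 (exact permutation p = 0.7, adjusted p = 0.7). Day 14 differed from day 7 by 0.356 (exact permutation p = 0.2, adjusted p = 0.24). PPAT spans chr4:56393362-56435615 on the minus strand and PAICS chr4:56435741-56464579 on the plus strand, with starts 126 bases apart. Of the exonic bases of PPAT, 3.29% lie opposite a transcript on the other strand, AC068620.2, and since the strand setting of the counting is not given, reads there cannot be told apart. Reads could also be shared with 2 pseudogene symbols of PPAT and 7 of PAICS, whose counts came to at most 0.198% and 0.595% of the gene's own.

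**Figure D3:**
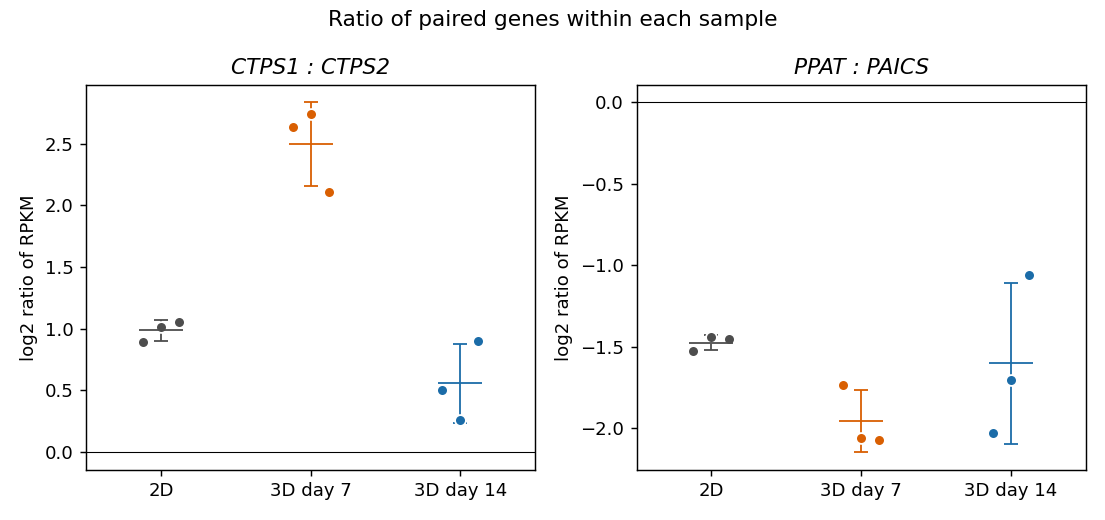
Log2 ratio of RPKM within each sample for CTPS1 over CTPS2 and for PPAT over PAICS, by culture condition; points are samples, and bars show the mean with SD (n = 3). The CTPS1 ratio is 2.5 at day 7 against 0.988 in 2D and 0.557 at day 14, and the PPAT ratio moves less, with the widest spread at day 14.

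The enzymes around the 10 were examined as lists by function, given as counts and medians. Their counts are to be read beside the shares of all genes tested, which were 22.2% up and 21.2% down at day 7, 19.0% and 17.2% at day 14, and 14.5% and 13.6% from day 7 to day 14. In the other enzymes of purine nucleotide formation, from ribose phosphate activation to AMP and GMP, 3 of 13 tested genes rose at day 7 and 1 fell (median log2 fold change 0.03). The risers included ADSL (0.85, adjusted p = 0.0145), which acts on the route between PAICS and ATIC and again towards AMP, and IMPDH1 (0.64, adjusted p = 0.00932), which opens the branch to GMP. AK1, which interconverts adenine nucleotides, fell by 1.88 on the log2 scale (adjusted p = 0.00245), at low levels of 1.79 CPM on average in 2D and 0.49 at day 7. At day 14, 0 of the 13 were called higher than 2D and 3 lower (median -0.225), among them GMPS, which makes GMP (-0.81, adjusted p = 0.000631), and PRPS2, which supplies activated ribose phosphate (-0.74, adjusted p = 0.00316). From day 7 to day 14, 2 rose and 5 fell (median -0.411). With library sizes scaled by total counts alone, 2 of the 13 rose and 3 fell at day 7 (median -0.131), and 0 were higher and 7 lower at day 14 (median -0.427).

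Salvage genes were called in both directions, in shares near those of all genes at day 7. Of 12 purine salvage genes, 2 rose and 3 fell at day 7 (median -0.0189): AMPD3, which deaminates AMP, rose by 1.61 (adjusted p = 8.29e-05), and ADA, adenosine deaminase, fell by 1.38 (adjusted p = 3.64e-05). At day 14, 2 were higher and 4 lower than in 2D (median -0.314), with AMPD3 at 1.79 (adjusted p = 5.91e-05) and MTAP, which recycles methylthioadenosine, at -1.22 (adjusted p = 0.000477). With total-count scaling, 7 of the 12 were lower at day 14. From day 7 to day 14, 2 rose and 2 fell (median -0.19). The pyrimidine list of 16 genes covers salvage, breakdown and also the phosphorylation of nucleotides, which the de novo route shares. Of these 16, 4 rose and 3 fell at day 7 (median -0.104), and 4 were higher and 3 lower at day 14 (median 0.0855). With library sizes scaled by total counts alone, these counts became 2 and 5 at day 7 and 1 and 4 at day 14. TYMP, thymidine phosphorylase, was higher at both times (1.26, adjusted p = 0.000376, and 1.32, adjusted p = 0.000381), and UPP1, uridine phosphorylase, fell by 1.39 at day 7 (adjusted p = 0.000388). From day 7 to day 14, 4 of the 16 rose and 1 fell (median 0.087).

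Genes that make or break down DNA precursors were mostly lower at day 14. Of 9 genes, 1 rose and 2 fell at day 7 (median 0.27): SAMHD1, which breaks down deoxynucleotides, rose by 1.11 (adjusted p = 0.000478), and DUT, the dUTPase, fell by 0.67 (adjusted p = 0.00335). At day 14, 6 of the 9 were lower than in 2D and 0 higher (median -1.20), with thymidylate synthase TYMS at -1.29 (adjusted p = 9.13e-05) and the ribonucleotide reductase subunit RRM2 at -1.75 (adjusted p = 0.000109). From day 7 to day 14, 7 fell (median -0.988), with RRM2 at -1.62 (adjusted p = 0.000429).

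Of 11 genes of folate and one-carbon metabolism, which supplies the formyl groups used by GART and ATIC, 2 rose and 4 fell at day 7 (median 0.05; -0.106 with total-count scaling). MTHFD1, the cytosolic enzyme that makes formyltetrahydrofolate, rose by 0.67 (adjusted p = 0.0359; 0.124 with total-count scaling), while the mitochondrial enzymes SHMT2 and MTHFD2 fell by 1.77 (adjusted p = 1.14e-05) and 1.70 (adjusted p = 1.3e-05). At day 14, 1 was higher and 5 lower than in 2D (median -0.612), and with total-count scaling 0 were higher and 6 lower. From day 7 to day 14, 3 rose and 3 fell (median 0.187), with MTHFD1 falling by 1.57 (adjusted p = 0.000895) and SHMT2 rising by 0.94 (adjusted p = 0.00168).

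Of 10 genes of glutamine and aspartate supply, 3 rose and 2 fell at day 7 (median 0.106; -0.0496 with total-count scaling). GOT2, the mitochondrial aspartate aminotransferase, rose by 0.91 (adjusted p = 0.00171). ASNS, which consumes aspartate and glutamine to make asparagine, was called lower by 3.03 (adjusted p = 0.000706). It averaged 1.64 CPM in 2D and 0.2 at day 7, so it passed the filter largely through 2D, and its fall carries little weight. The glutamine carrier SLC1A5 fell by 1.40 (adjusted p = 0.000122). At day 14, 1 was higher and 1 lower than in 2D (median -0.00692; 0 and 4 with total-count scaling), and from day 7 to day 14, 2 rose and 2 fell (median -0.153). Of the 4 nucleoside transporters tested, 1 rose and 3 fell at day 7 (median -1.27), including the plasma membrane carrier SLC29A1 (-0.51, adjusted p = 0.0121). The counts of the 4 transporters were the same at day 14 (median -1.20), where SLC29A1 was at -1.27 (adjusted p = 5.49e-05). With total-count scaling, 0 were higher and 3 lower at day 14. From day 7 to day 14, 1 rose and 2 fell (median -0.138).

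**Figure D4:**
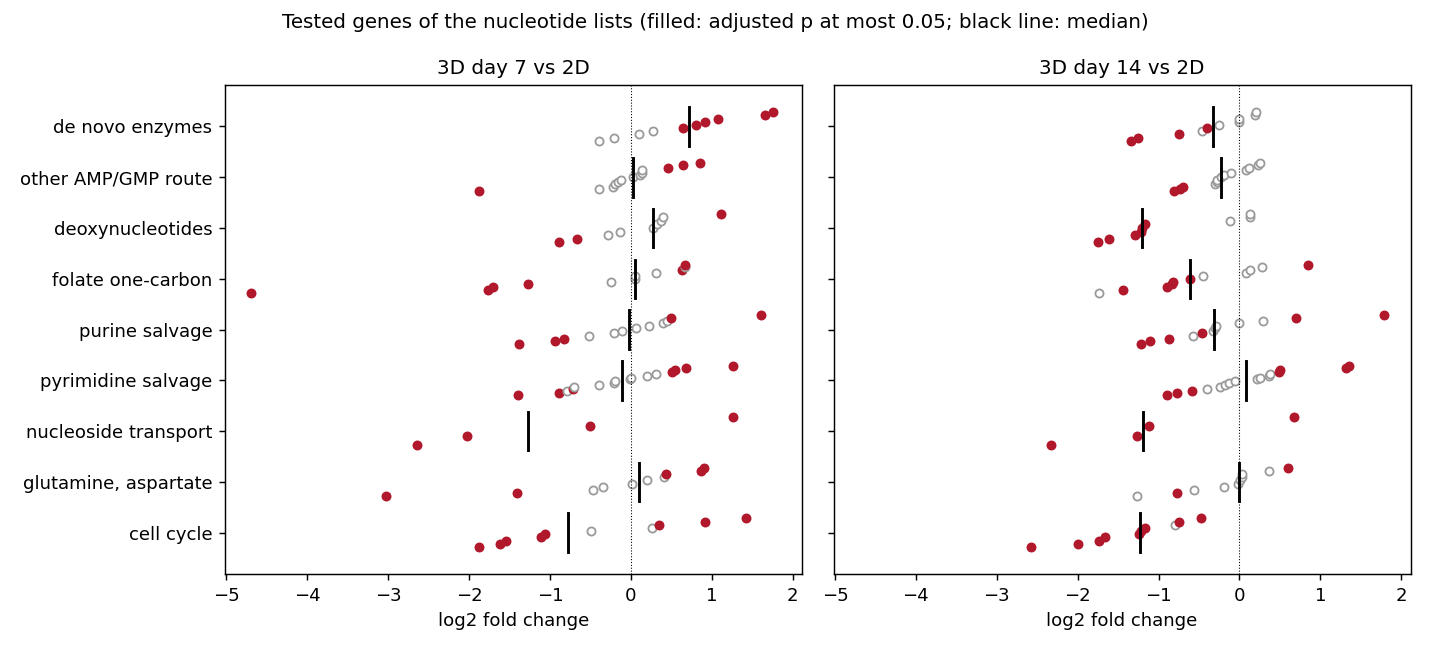
Log2 fold change of every tested gene in the lists of nucleotide metabolism and of cell cycle genes, for 3D_7d and 3D_14d, each against 2D. Points are genes, filled where the adjusted p is at most 0.05, and the black line is the median of the list. The de novo enzymes have a median of 0.72 at day 7, the deoxynucleotide genes a median of -1.20 at day 14, and the salvage lists have filled points on both sides of 0.

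Cell division genes and MYC moved between the conditions as well. Of 10 cell cycle genes, 3 rose and 5 fell at day 7 (median -0.775): the replication licensing gene MCM5 rose by 0.92 (adjusted p = 0.000512) and CCNE2, a cyclin of the entry into S phase, by 1.43 (adjusted p = 0.00641), while the proliferation marker MKI67 fell by 1.88 (adjusted p = 0.000244) and the mitotic cyclin CCNB1 by 1.06 (adjusted p = 0.000234). With each of the other scalings tried, 2 of the 10 rose and 5 fell at day 7. At day 14, 9 of the 10 were lower than in 2D and 0 higher (median -1.23), with MKI67 at -2.58 (adjusted p = 4.99e-05). From day 7 to day 14, 5 fell (median -0.662), with MCM5 at -1.40 (adjusted p = 0.000145) and PCNA, the replication clamp, at -1.10 (adjusted p = 0.00021).

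MYC, a transcription factor known to activate many nucleotide synthesis genes, was at 486.9, 460.1 and 426.0 CPM in 2D, at 74.6, 96.2 and 107.4 at day 7 and at 76.0, 127.9 and 118.6 at day 14. Every 3D sample lay far below every 2D sample, with a log2 fold change of -2.30 for 3D_7d (adjusted p = 8.69e-06) and -2.09 for 3D_14d (adjusted p = 2.1e-05), and the change between the time points of 0.21 did not pass the test (adjusted p = 0.439). The 6 enzymes that rose at day 7 thus did so in samples in which MYC was low, and 9 enzymes fell from day 7 to day 14 while MYC differed by less than the test could call. The part of cell division or of MYC in the course of the 10 enzymes was not tested.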

How the data were processed

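RNA of MEC1 cells was sequenced in 9 samples, 3 per condition. As the study's methods and the labels state, the authors prepared libraries with SMART-Seq v4, trimmed single reads with Trimmomatic (version 0.39), aligned them to GRCh38 with STAR (version 2.5.3a) and counted genes with featureCounts (version 1.6.4); the deposited values are raw counts per symbol. The strand setting and the treatment of multi-mapping reads are not given in the sources used here. In R (version 4.3.3), edgeR (version 4.0.16) was used for TMM scaling and for the quasi-likelihood test, with all 9 samples in 1 fit, on the 13463 of 51726 detected genes that exceeded a CPM of 1 in 3 or more samples. The Benjamini-Hochberg adjustment ran over these genes (threshold 0.05). CPM and RPKM were computed from the counts, with library sizes scaled by TMM except in the filter on low values. DESeq2 (version 1.42.0) was an alternative. The steps were tested on simulated data.

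The 10 enzymes and the gene lists were chosen with earlier results of these data known. All 10 were named in every comparison; from other lists, at most the 2 called genes of smallest p per direction and comparison were named, and MYC in addition; 1 gene the rule names is not reported here. Alternatives were other scalings, filters and tests, the 6 samples of a comparison, the replicate number as a block, a minimum absolute log2 fold change of 1, and leaving out each sample.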

Additional observations from a re-analysis of the deposited data

Results flagged for a closer look

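The 2 time points differed from each other in their change against 2D for 9 of the 10 enzymes, as tested directly by the comparison of 3D_14d with 3D_7d (quasi-likelihood test in edgeR, Benjamini-Hochberg adjusted). The log2 fold changes were -2.01 for CTPS1, -1.45 for CAD, -1.39 for PFAS, -1.35 for PAICS, -1.09 for GART, -1.04 for UMPS, -0.94 for PPAT, -0.81 for ATIC and -0.54 for DHODH, with adjusted p-values from 1.52e-05 for CTPS1 to 0.0219 for DHODH. All 3 day 14 samples lay below all 3 day 7 samples for each of these 9. For CTPS2 the difference was -0.08 (adjusted p = 0.792). Groups of 3 samples are too small for a test of single outlying samples.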

How the results depend on the processing

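Scaling by DESeq2's size factors or by total counts, the DESeq2 test and the replicate block changed no call among the 10 enzymes: with the replicate block, 6 rose at day 7, 4 were lower at day 14 and 9 fell between the time points. Deviations of samples with the same replicate number correlated at -0.1 to 0.185, over 0.1 in 2 of 9 pairs; between 2D and 3D_14d all 3 were positive (0.0931 to 0.185) and each sample correlated best with its own number, which held for none of the other pairs, so the numbers were not taken to pair samples. With a minimum absolute log2 fold change of 1, 3 enzymes rose at day 7, 2 were lower at day 14 and 6 fell between the time points. With the 6 samples of the comparison alone, 1 enzyme (PPAT) was lower at day 7. Leaving out 1 sample gave 5 to 6 enzymes higher and 0 to 1 lower at day 7, 3 to 5 lower at day 14, and 8 to 9 lower from day 7 to day 14. Total-count scaling shifted the median of all genes by -0.157 at day 7 and -0.203 at day 14. Some log2 fold changes near 0 that passed no test changed sign. With total counts, PAICS was at -0.059 at day 7, and CAD at -0.0045 and CTPS2 at -0.015 at day 14. Leaving out 1 sample gave -0.025 (without 3D_7d replicate 3) to 0.17 for PAICS at day 7. At day 14 it gave -0.14 (without 3D_14d replicate 2) to 0.17 (without 3D_14d replicate 1) for GART. For ATIC it gave -0.13 to 0.077 (without 3D_14d replicate 3), with 0.031 without 3D_14d replicate 1. For CTPS2 it gave -0.017 (without 3D_14d replicate 2) to 0.30, and for the PPAT to PAICS ratio -0.39 to 0.091 (without 3D_14d replicate 1). Between the time points, CTPS2 ranged from -0.28 to 0.14 (without 3D_7d replicate 3), with 0.045 without 3D_14d replicate 1 and 0.0014 without 3D_14d replicate 3. The cause was not tested. At least 655 reads lay behind each value of an enzyme, so the spread between 3 samples limits the precision.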
